A study of Mus musculus with 4 samples.

Results

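The genes described here are 10 genes of connective tissue and perivascular cells that are not collagens, taken from a list of stromal genes: the receptor genes Pdgfra and Pdgfrb, the transcription factor genes Twist1 and Prrx1, and the matrix genes Dcn, Lum, Bgn, Fbn1, Postn and Hmcn1. All 10 had a named probe, and together they had 16 probes of the 41153 probes and 18322 named genes on the array. The series compared sorted mouse cells with and without HP1γ, a heterochromatin protein encoded by Cbx3. The 2 groups were HP1γ-/- embryos, whose null allele came from a gene trap, and wild-type embryos. Both carried the Blimp1-mVenus transgene, a fluorescent reporter for Blimp1, and mVenus-positive cells labelled as primordial germ cells were sorted from genital ridges of embryos aged 11.5 days. Every pool combined the RNA of 5 or 6 embryos, each giving roughly 500 to 3500 sorted cells, and each genotype had 2 independent pools. Each of the 4 pools was measured on 1 one-colour Agilent array.

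Mesenchymal cells of the embryo lay down the extracellular matrix that surrounds organs and vessels. The receptor tyrosine kinases encoded by Pdgfra and Pdgfrb receive platelet-derived growth factors, Pdgfra mainly on mesenchymal progenitors and Pdgfrb mainly on pericytes and other perivascular cells. Twist1 and Prrx1 encode transcription factors of mesenchymal progenitors. Decorin (Dcn), lumican (Lum) and biglycan (Bgn) are small leucine-rich proteoglycans that bind collagen fibrils, fibrillin-1 (Fbn1) builds microfibrils, periostin (Postn) is a matricellular protein and hemicentin-1 (Hmcn1) is a large matrix protein. Primordial germ cells migrate through such tissue before they enter the genital ridge.

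Of the 10 genes, Pdgfrb was left out of the search for promoter windows. RefSeq promoter windows (GRCm38.p6, 250 bases before to 50 after the annotated start) were found for 7 of the others, all but Dcn and Lum. Those below are shown because they belong to 2 genes that shared the most common pattern over the arrays, Pdgfra and Twist1, and to the 3 genes that departed from it. Each window was searched on both strands for CANNTG (the E-box, a motif of the family of Twist1), TATAAA (the TATA motif) and TAATTA (a homeodomain motif). These letters do not overlap one another in the windows shown, and matches are in capitals. The windows are Pdgfra chr5:75152001-75152300 on the plus strand, Twist1 chr12:33957421-33957720 on the plus strand, Postn chr3:54360857-54361156 on the plus strand, Bgn chrX:73483351-73483650 on the plus strand and Hmcn1 chr1:150993386-150993685 on the minus strand. For Postn, the later of 2 annotated starts is shown.
Pdgfra: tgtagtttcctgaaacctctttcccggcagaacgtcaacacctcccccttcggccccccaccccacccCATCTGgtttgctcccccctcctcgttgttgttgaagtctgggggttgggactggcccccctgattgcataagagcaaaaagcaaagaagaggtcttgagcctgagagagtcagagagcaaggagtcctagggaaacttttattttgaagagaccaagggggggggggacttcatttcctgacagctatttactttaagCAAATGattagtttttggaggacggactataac
Twist1: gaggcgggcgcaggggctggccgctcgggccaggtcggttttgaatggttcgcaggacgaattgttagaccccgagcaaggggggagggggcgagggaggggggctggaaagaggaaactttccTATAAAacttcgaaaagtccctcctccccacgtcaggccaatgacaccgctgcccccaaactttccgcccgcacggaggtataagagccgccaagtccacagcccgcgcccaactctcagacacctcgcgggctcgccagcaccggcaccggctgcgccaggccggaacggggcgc
Postn: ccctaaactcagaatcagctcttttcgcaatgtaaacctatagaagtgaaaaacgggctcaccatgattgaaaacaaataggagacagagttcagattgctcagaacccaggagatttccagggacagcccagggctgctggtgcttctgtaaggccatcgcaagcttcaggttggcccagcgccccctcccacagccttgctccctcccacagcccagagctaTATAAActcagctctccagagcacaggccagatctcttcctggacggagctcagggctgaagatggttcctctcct
Bgn: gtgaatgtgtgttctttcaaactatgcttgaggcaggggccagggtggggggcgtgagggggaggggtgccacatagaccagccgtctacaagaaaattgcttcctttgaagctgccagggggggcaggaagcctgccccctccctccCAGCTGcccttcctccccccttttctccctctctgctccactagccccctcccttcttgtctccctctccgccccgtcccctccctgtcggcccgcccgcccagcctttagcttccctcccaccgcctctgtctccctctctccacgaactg
Hmcn1: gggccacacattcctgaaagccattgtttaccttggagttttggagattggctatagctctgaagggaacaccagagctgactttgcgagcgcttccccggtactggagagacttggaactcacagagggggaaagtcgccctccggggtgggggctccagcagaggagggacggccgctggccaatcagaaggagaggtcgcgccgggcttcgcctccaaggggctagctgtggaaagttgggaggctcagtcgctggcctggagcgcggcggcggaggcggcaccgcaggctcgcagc
The Pdgfra window held 2 E-boxes and the Bgn window 1, while 72.3% of all 32851 promoter windows of this length held at least 1. A TATA motif lay 26 bases before the start shown for Postn, at position -26, and at position -126 for Twist1, and 13.6% of all windows held one. The Hmcn1 window held none of the 3 motifs. None of the windows shown held TAATTA, which 5.29% of all windows held. Of the windows not shown, that of Prrx1 held TAATTA at position -173 and that of Fbn1 an E-box at position 39. The earlier Postn window held none of the 3 motifs. The GC content was 51%, 66%, 53%, 63.7% and 63.3% for Pdgfra, Twist1, Postn, Bgn and Hmcn1, against a median of 52.7% over all windows. No probe sequence or binding data were used here, so these windows are context for the levels below and were not tested against them.

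The HP1γ-null arrays had a 75th percentile of 125 and 291 intensity units and the wild-type arrays one of 188 and 219, and 53.3% to 63.3% of spots were well above background. Levels below are log2 signals minus the array's own 75th percentile, so 1 unit is a 2-fold difference in signal. Cbx3 read -1.24 and -2.78 in the null pools, against 5.89 and 5.72 in wild type, by its probe A_51_P117162. Tested were the 22440 probes that passed the scanner's background flag on both replicates of either genotype. Over them, replicates differed with a root mean square SD of 0.59 in the null group and 0.28 in wild type, and 0.46 over both groups. The 2 null pools also stood apart in germ cell markers, of which 8 of 12 measured, among them Dppa3, Pou5f1 and Ddx4, failed the background flag in null replicate 2. All 12 passed it in each of the other pools. The 8 that failed in null replicate 2 could be tested only by passing on both wild-type arrays. Their passing in wild type was thus fixed by the filter, while that in null replicate 1 was not. Genotype differences of the 10 genes and of the gene lists are therefore also given without each null pool. With 2 arrays per genotype, the array number limits precision.

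In 8 of the 10 stromal genes the gap between the 2 null pools exceeded both the genotype difference and the gap between the wild-type pools, the exceptions being Bgn and Hmcn1. In 7 of the 10 genes the arrays stood in 1 order, highest in null replicate 2, then wild-type replicate 1, wild-type replicate 2 and null replicate 1. That order was met by 6.3% of the 22440 probes tested. The genes in this order were Pdgfra, Pdgfrb, Twist1, Prrx1, Dcn, Lum and Fbn1, and null replicate 2 exceeded null replicate 1 by 2.98-fold to 16.5-fold in them. The 3 that departed from it were Postn, Bgn and Hmcn1. The summed signal of 12 germ cell markers, in multiples of the array's 75th percentile, was 256 and 7.68 in null replicates 1 and 2. It was 63.7 and 22.7 in wild-type replicates 1 and 2. Most of the sum came from Dppa5a and Rhox5 in null replicate 1 (levels 7.45 and 5.64). In null replicate 2 it came from Rhox5 and Ifitm3 (1.82 and 1.70). The part of germ cell signal in the stromal order was not tested. The order was computed from the stromal genes themselves and is a description, with no test. In a sorted bulk sample, fewer cells of a type and less RNA per cell cannot be told apart.

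**Figure D1:**
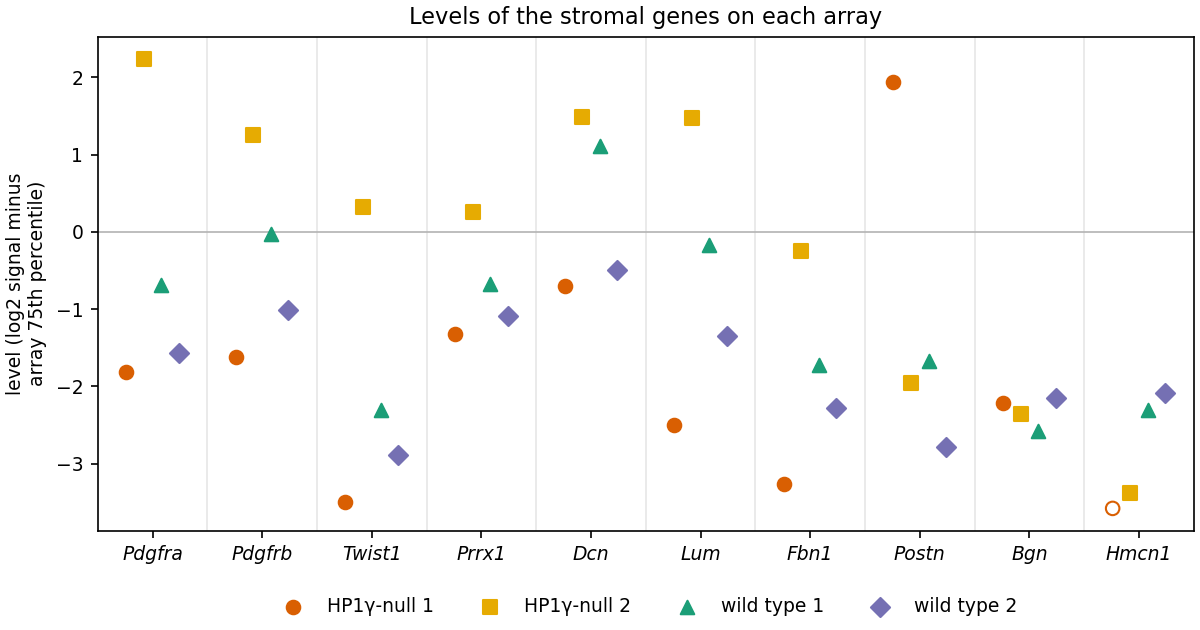
Levels of the 10 genes (log2 signal minus the array's 75th percentile) on the 2 HP1γ-null and 2 wild-type arrays, by the probe with the highest mean for each gene. Each point is 1 array, and the open point marks a probe not well above background; null replicate 2 is highest in the 7 genes from Pdgfra to Fbn1, and null replicate 1 is highest in Postn.

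Of the receptors, Pdgfra read -1.81 and 2.23 in null replicates 1 and 2, against -0.69 and -1.57 in wild-type replicates 1 and 2 (probe A_51_P345649). Null replicate 2 was thus 16.5-fold above null replicate 1 and 7.6-fold above the higher wild-type pool, and the groups overlapped because null replicate 1 was the lowest. This probe was printed at 10 spots on each array, and the SD over the 8 to 10 spots kept was 0.13, 0.03, 0.06 and 0.08 on the arrays in that order. The spread between spots was therefore far smaller than that between the null pools. Pdgfra averaged 0.21 ± 2.86 in the null pools and -1.13 ± 0.62 in wild type (SD, n = 2 each). In processed signal the same probe read 35.5 and 1366 intensity units in the null pools, against 116 and 73.6 in wild type. Pdgfrb read -1.62 and 1.25 in the null pools, against -0.03 and -1.01 in wild type (A_51_P150964). The order was that of Pdgfra, while the gap between the null pools was 2.87 for Pdgfrb and 4.05 for Pdgfra on the log2 scale.

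The transcription factor genes followed the same order. Twist1 read -3.49 and 0.32 in the null pools, against -2.31 and -2.88 in wild type (A_52_P20906), so null replicate 2 was 14.1-fold above null replicate 1. Prrx1 read -1.32 and 0.26 in the null pools, against -0.68 and -1.09 in wild type (A_51_P209771). At 2.98-fold, its gap between the null pools was the smallest of the 7 genes. Prrx1 had 4 probes, matched to 2 transcript accessions. Probe A_51_P209778 read -1.30 and -0.49 in the null pools and -0.70 and -1.23 in wild type, a gap between the null pools of only 1.75-fold. Probe A_52_P483713 read -4.12 and -1.67 in the null pools, the first not well above background, and -3.03 and -3.54 in wild type. All 3 of these probes held the common order. The fourth, A_52_P335587, passed the background flag on no array.

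Among the proteoglycans, Lum and Dcn followed the common order and Bgn did not. Lum read -2.50 and 1.47 in the null pools, against -0.17 and -1.35 in wild type (A_51_P167527), a 15.7-fold gap between the null pools. Dcn read -0.70 and 1.48 in the null pools, against 1.11 and -0.50 in wild type (A_51_P334104). Dcn lies next to Lum on chromosome 10, with Kera and Epyc of the same protein family beyond Lum. In Dcn the higher wild-type pool came close to null replicate 2, with a gap of 0.37, which is under the replicate SD of 0.46. The microfibril gene Fbn1 read -3.26 and -0.24 in the null pools, against -1.72 and -2.29 in wild type (A_51_P467224), an 8.1-fold gap between the null pools. Its second probe, A_52_P224801, was well above background in null replicate 2 alone, where it read -3.16. The second Pdgfra probe, A_52_P264283, was likewise well above background in null replicate 2 alone, at -3.10. These 2 probes and the dim Prrx1 probe were not tested, so 13 of the 16 probes entered the fit.

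Not every step of this order exceeded the replicate SD of 0.46. That SD describes single arrays, and a gap between 2 arrays varies more. A gap over 0.46 can therefore still lie within the spread between replicates. Null replicate 2 exceeded wild-type replicate 1 by more than 0.46 in 6 of the 7 genes by the brightest probe, Dcn being the exception. By the Prrx1 probe A_51_P209778 that gap was 0.21, also under the replicate SD. At the low end, null replicate 1 lay below wild-type replicate 2 by more than 0.46 in 4 genes, by 1.15 in Lum, 0.98 in Fbn1, 0.61 in Twist1 and 0.61 in Pdgfrb. In Pdgfra, Prrx1 and Dcn that gap was 0.24, 0.23 and 0.21, so the 2 lowest arrays did not differ beyond the replicate SD. The gaps of 0.61 lay close to the SD of 0.59 between null replicates. Wild-type replicate 1 exceeded wild-type replicate 2 by 0.41 in Prrx1 to 1.61 in Dcn. With normexp background correction the last 2 places changed, so that wild-type replicate 2 was lowest in the most common order and 3 genes (Dcn, Lum and Pdgfrb) kept the order given above, while null replicate 2 was still highest in the same number of genes, 7.

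Postn showed the opposite contrast between the null pools, and was the 1 gene of the 10 with null replicate 1 highest, against 31.2% of all tested probes. It read 1.94 and -1.96 in null replicates 1 and 2, against -1.67 and -2.78 in wild type (A_51_P489192). Null replicate 1 was 14.9-fold above null replicate 2 and 12.3-fold above the higher wild-type pool, while null replicate 2 lay between the wild-type pools. In processed signal this was 479 and 74.9 intensity units in the null pools, against 58.9 and 31.8 in wild type. Of the 6 possible pairs of arrays, 4 stood the other way round from the common order. The genotype difference was 2.22 on the log2 scale (SE 1.38, limma adjusted p = 0.80), and 4.17 without null replicate 2 and 0.27 without null replicate 1. With normexp background correction it was 1.41.

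Bgn stayed nearly level. It read -2.22 and -2.36 in the null pools, against -2.57 and -2.15 in wild type (A_52_P162486), a range of 0.43 over the 4 arrays. All pairs that stood against the common order, 4 of 6, lay closer than the replicate SD. Its genotype difference was 0.07 with a 95% interval of -0.58 to 0.71 (limma adjusted p = 0.98), which was -0.14 without wild-type replicate 1 and close to 0 without null replicate 1. Of all tested probes 28.3% had a range over the arrays as small as that of Bgn.

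Hmcn1 was the 1 gene of the 10 whose arrays did not overlap between the genotypes by the probe used, against 38.2% of all tested probes. It read -3.58 and -3.37 in the null pools, against -2.31 and -2.09 in wild type (A_51_P393518). In null replicate 1 this probe did not pass the background flag, reading under that array's lowest level well above background (-3.56). The probe was therefore tested only through wild type, the group where it is higher. Its mean was -3.48 ± 0.14 in the null pools and -2.20 ± 0.15 in wild type (SD, n = 2 each), a log2 difference of -1.28 (SE 0.21, limma adjusted p = 0.34), which missed the threshold of 0.05. The second probe, A_52_P22590, read -4.32 and -3.63 in the null pools, the first not well above background, and -3.40 and -3.02 in wild type. It too was tested only through wild type, and its groups did not overlap, with a difference of -0.77 (limma adjusted p = 0.70). The difference by the first probe was -1.39 to -1.17 with any 1 array left out, but -0.33 with normexp background correction. Among the 22440 probes, 4.99% differed at least 2-fold without overlap, 3.92% higher and 1.07% lower in the null pools, and Hmcn1 was the 1 member of 10 to do so.

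The genotype comparison asked whether loss of HP1γ went with a difference in these genes. Limma called none of the 13 tested probes, against 0.00891% of all 22440 probes, and 1 of the 10 genes had an unadjusted p under 0.05, against 7.51% of all probes. Cbx3 itself was called by probe A_51_P160328 (limma adjusted p = 0.044). It was missed by A_51_P117162, at a difference of -7.82 (limma adjusted p = 0.099), so the lack of a call says little about a gene. Means were higher in the null pools in 9 of the 10 genes, against 41.7% of all probes, or in 3 of the 10 with scaling to spiked-in RNA, which moved the median of all probes to -0.60. The median difference of the 10 genes was 0.29, beside -0.06 over all tested probes, and it was -0.24 with scaling to spiked-in RNA. Wild-type replicate 1 exceeded wild-type replicate 2 in 8 of the 10 genes, against 48.3% of all probes, and null replicate 1 was the lowest array in 8, against 30.3%. For the 7 genes of the common order, the difference was 0.08 in Dcn to 1.34 in Pdgfra with all arrays (limma adjusted p = 0.89 to 0.99). Without null replicate 2 all 7 were lower in the null group, and without null replicate 1 all 7 were higher. Without wild-type replicate 2 the sign also turned in 4 of them, Dcn, Lum, Fbn1 and Pdgfrb.

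Pdgfra differed by 1.34 on the log2 scale with a 95% interval of -2.41 to 5.10, which became 3.37 when null replicate 1 was left out and -0.68 when null replicate 2 was. Pdgfrb differed by 0.34 with an interval of -2.43 to 3.11, and by 1.77 and -1.10 without null replicates 1 and 2. Twist1 differed by 1.01 with an interval of -2.49 to 4.51, and by 2.92 and -0.90 without the same pools. Each of these intervals spans 0 and is wide beside the estimate. In the same order, Lum differed by 2.23 and -1.74, Fbn1 by 1.76 and -1.26, Prrx1 by 1.14 and -0.43 and Dcn by 1.17 and -1.01. Each of these pairs spans 0, so 1 null pool decides the sign. The median over the 10 genes was 1.47 with null replicate 1 omitted and -0.95 with null replicate 2 omitted.

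**Figure D2:**
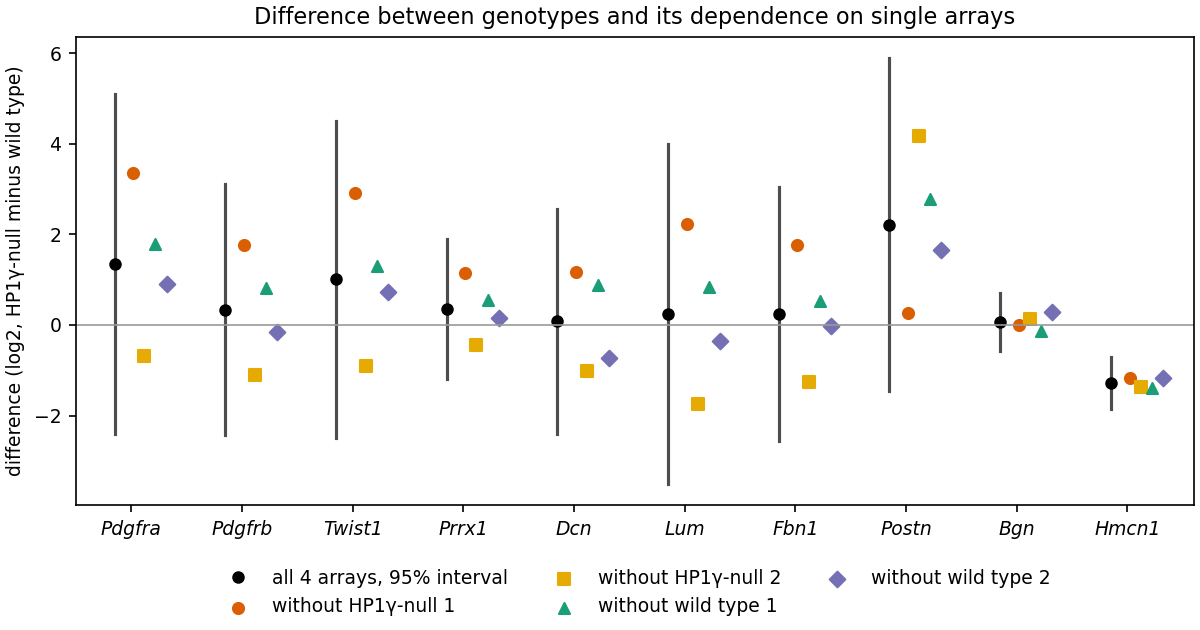
Difference between genotypes (log2, HP1γ-null minus wild type) for each of the 10 genes. Black points with bars are the estimate from all 4 arrays with limma's 95% interval, and coloured points are the estimates with 1 array left out; 7 genes lie below 0 without null replicate 2 and above 0 without null replicate 1, while Hmcn1 lies below 0 in each case.

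The gap between the null pools was set beside that of all probes. Null replicate 2 exceeded null replicate 1 at least 2-fold in 7 of the 10 genes, against 6.66% of the tested probes, and at least 4-fold in 6, against 1.28%. Gaps at least as large as that of Pdgfra (4.05) were seen in 0.102% of the probes, as large as that of Lum (3.97) in 0.12% and as large as that of Twist1 (3.82) in 0.152%. The corresponding shares were 0.414% for Fbn1, 0.477% for Pdgfrb, 1.02% for Dcn and 2.4% for Prrx1. Postn lay at the other end, where 0.343% of probes had a difference as low as its -3.90. At least 2-fold lower in null replicate 2 were 7.65% of all probes and 1 of the 10 genes. These shares compare 2 libraries and carry no replicate error.

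**Figure D3:**
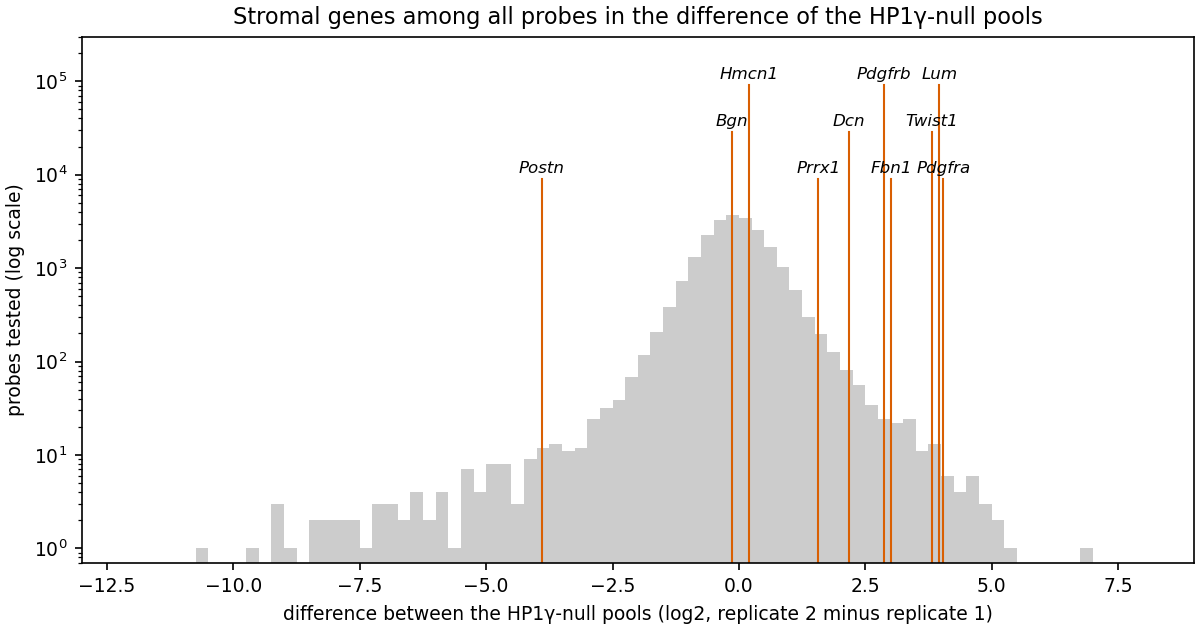
Number of tested probes (log scale) by the difference between the 2 HP1γ-null pools (log2, replicate 2 minus replicate 1), with the 10 genes as vertical lines whose heights only separate the names. From Prrx1 (1.58) to Pdgfra (4.05), 7 genes lie in the upper tail, Bgn and Hmcn1 near 0 and Postn (-3.90) in the lower tail.

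Other genes of the same pathways were described from 6 lists, none of which had a gene that limma called. An unadjusted p under 0.05 was met by 7.51% of all tested probes. It was met by 1 of 7 measured PDGF ligand genes, 1 of 4 proteoglycan, 2 of 14 fibrillin and 2 of 9 matricellular genes. The counts were 0 of 12 for mesenchymal factor and 1 of 10 for mural cell genes, and some genes stand in several lists. With scaling to spiked-in RNA the medians of all 6 lists were below 0. Of the 7 genes of PDGF ligands and their processing, all measured, 4 had higher and 3 lower means in the HP1γ-null group, and the median difference was 0.12. Without null replicates 1 and 2 it was -0.17 and -0.03. The ligand gene Pdgfc read -0.31 and 0.76 in the null pools, against -2.63 and -3.31 in wild type, a log2 difference of 3.19 with SE 0.47 (limma adjusted p = 0.26). Its groups did not overlap, whereas those of its receptor gene Pdgfra did, with null replicate 1 lowest. The ligand gene Pdgfa, chosen after its values were seen, read 3.09 and 1.14 in the null pools, against 1.87 and 0.95 in wild type. Sparc, a matrix glycoprotein gene that can bind PDGF, read 4.83 and 5.03 in the null pools, against 5.30 and 5.36 in wild type (limma adjusted p = 0.76).

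Of the 13 small leucine-rich proteoglycan genes only 4 were measured, the members Dcn, Lum and Bgn and the related gene Ecm2, which differed by -0.65 (limma adjusted p = 0.63). With them the median was 0.08, 3 being higher and 1 lower, and it was 0.59 and -0.86 without null replicates 1 and 2 and -0.54 without wild-type replicate 2. The list of 20 fibrillin and elastic fibre genes had 14 measured, 10 higher and 4 lower, with a median of 0.38, and null replicate 2 was highest in 11, against 26.4% of all tested probes. Leaving out null replicate 1 gave a median of 1.34, and leaving out null replicate 2 gave -0.57. Without the members Fbn1 and Hmcn1, 9 of 12 genes were higher and 3 lower (median 0.40). Null replicate 2 was then highest in 10. Besides Hmcn1, the gene chosen by its p was Ltbp1, which encodes a binding protein of latent TGF-beta and read -2.32 and -1.84 in the null pools, against -3.03 and -3.57 in wild type (limma adjusted p = 0.52). Chosen after their values were seen, the fibulin gene Fbln2 read -1.84 and 2.94 in the null pools and 0.10 and -2.04 in wild type, and Mfap4, a microfibril-associated gene, read -1.33 and 2.65, and 0.29 and -0.59. Both were highest in null replicate 2, as Fbn1 was.

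The matricellular list had 9 of 12 genes measured, 5 higher and 4 lower (median 0.21), and null replicate 2 was highest in 3, against 26.4% of all tested probes. The median was 0.27 and -0.25 without null replicates 1 and 2 and -0.18 without wild-type replicate 2. Without the member Postn, 4 of 8 genes were higher and 4 lower (median 0.008), and null replicate 2 was highest in 3. Sparcl1 differed by -0.81 and Thbs1, the thrombospondin-1 gene, by 0.73 (limma adjusted p = 0.51 and 0.66). Null replicate 1 was highest in 2 of the 9, Postn being 1 of them, against 31.2% of all tested probes. Of 20 mesenchymal transcription factor genes 12 were measured, 5 higher and 7 lower (median -0.28). Null replicate 2 was highest in 5 of the 12, against 26.4% of all tested probes, and null replicate 1 lowest in 8, against 30.3%. The median was 0.22 and -0.68 without null replicates 1 and 2. Without the members Twist1 and Prrx1, 3 of 10 genes were higher and 7 lower (median -0.41). Null replicate 2 was then highest in 3 and null replicate 1 lowest in 6. Foxd1 differed by -0.68 and Snai1 by -0.55 (limma adjusted p = 0.75 for each). Twist2, the closest relative of Twist1 and chosen after its values were seen, read -3.46 and -0.86 in the null pools, against -2.21 and -3.56 in wild type, with null replicate 2 again highest. Of 14 mural cell genes 10 were measured, 6 higher and 4 lower (median 0.17). The median was 0.71 and -0.65 without null replicates 1 and 2 and -0.16 without wild-type replicate 2. Anpep, a peptidase gene, differed by 0.82 and the channel regulator gene Abcc9 by -0.86 (limma adjusted p = 0.59 and 0.75). Null replicate 2 was highest in 5 of these 10 genes, Pdgfrb included, against 26.4% of all tested probes. Without Pdgfrb, 5 of 9 genes were higher and 4 lower (median 0.08), and null replicate 2 was highest in 4.

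By likeness of pattern, the genes nearest to the median profile of the 10 were St8sia1, Fzd1, Col2a1, Tmtc2, Nrk and Col3a1. Likeness was the root mean square difference, over the 4 arrays, of levels minus the gene's own mean, over 11032 genes, and it was 0.16 for St8sia1 and 0.22 for Col3a1. Nearest to Pdgfra were the chemokine gene Cxcl12, at 0.15, the potassium channel gene Kcnj8 and Ptn, which encodes the growth factor pleiotrophin. Cxcl12 read 1.41 and 5.37 in the null pools, against 2.39 and 1.90 in wild type. Kcnj8, also a mural cell marker, read -1.71 and 2.13 in the null pools, against -0.85 and -1.29 in wild type. Nearest to Pdgfrb were Col3a1, at 0.09, Cacna1g and Cd248, a gene expressed in pericytes and fibroblasts. Col3a1, a fibrillar collagen gene, read 0.31 and 3.26 in the null pools, against 1.92 and 0.77 in wild type.

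The genes nearest to Postn were the claudin gene Cldn7, at 0.14, Wfdc2 and the adaptor gene Grb7. Cldn7, which encodes a tight junction protein of epithelia, read 1.64 and -2.46 in the null pools, against -1.80 and -3.01 in wild type. Wfdc2, a secreted protein gene of epithelia, read 3.61 and 0.04 in the null pools, against 0.21 and -0.58 in wild type. Each was highest in null replicate 1, as was Postn, which follows from choosing them by likeness to it. These likenesses rest on 4 arrays.

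Markers of other cell types were read on the same arrays, and their part in the stromal pattern was not tested. The summed signal of the 10 stromal genes, in multiples of the array's 75th percentile, was 6.14 and 16.5 in the null pools, against 6.46 and 3.35 in wild type. Postn, at a level of 1.94, gave most of the sum in null replicate 1. The median level of the 10 genes was -2.01 and 0.29 in the null pools, against -1.18 and -1.83 in wild type. Of 12 germ cell genes measured of 15, 10 were highest in null replicate 1, against 31.2% of all tested probes, and none in null replicate 2, against 26.4%. Their median level was 1.35 and -5.80 in the null pools, against -0.52 and -1.79 in wild type. In the null pools the germ cell genes thus stood in the reverse order to the 7 stromal genes, whereas in wild type both were higher in replicate 1. The summed signal of 14 endothelial genes was 246 and 319 in the null pools, against 428 and 470 in wild type, and of 11 leukocyte genes 325 and 261, against 316 and 366. Every endothelial and leukocyte marker measured passed the background flag on all 4 arrays. Of 5 gonadal soma genes, measured of 11, 4 were highest in null replicate 2, against 26.4% of all tested probes. Wnt4, 1 of these 4, passed the background flag on no wild-type array, so it was tested only through the null group, where it is higher. The summed signal of the 5 genes was 5.33 and 10.02 in the null pools, against 4.31 and 3.23 in wild type. That of 5 erythroid genes, measured of 9, was 2.65 and 4.35 in the null pools, against 3.27 and 3.85 in wild type.

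**Figure D4:**
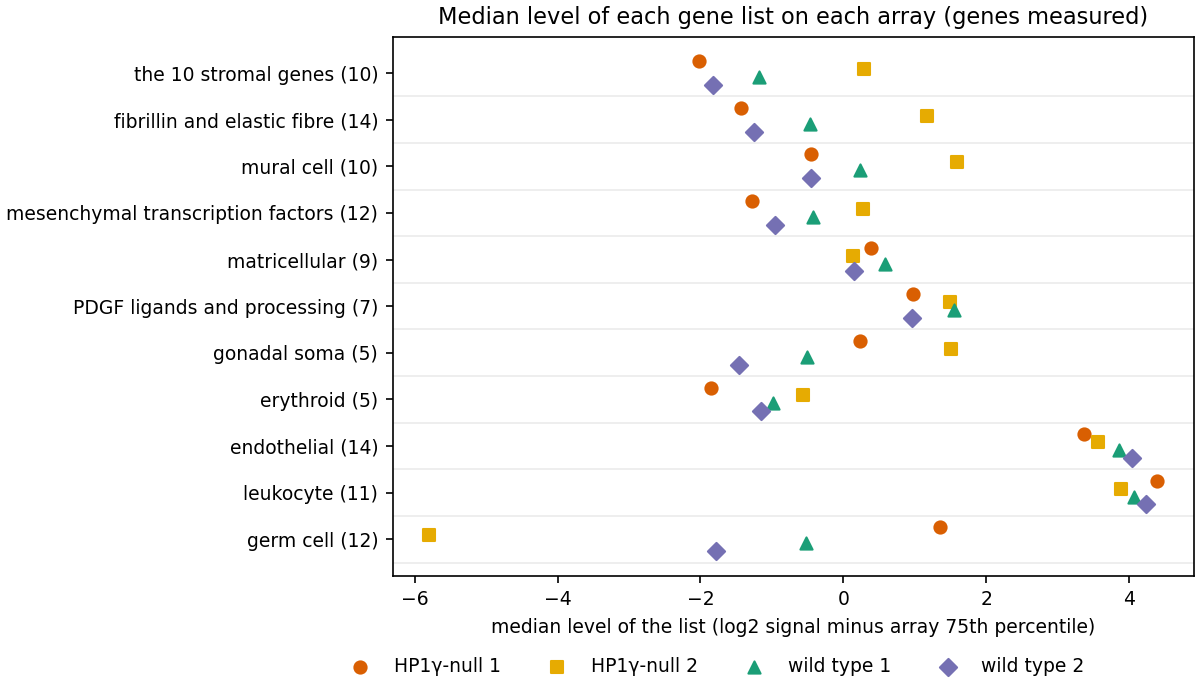
Median level (log2 signal minus the array's 75th percentile) of each gene list on the 4 arrays, with the number of genes measured in brackets; the proteoglycan list, with 4 genes measured, is not drawn. Null replicate 2 is highest for the stromal genes (0.29) and lowest for the germ cell genes (-5.80), while endothelial and leukocyte genes lie above 3 on every array.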

How the data were processed

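Per the labels, Cy3-labelled cRNA was made from 4 ng of each pool's RNA with an amplification kit for small inputs. Per the file headers, the deposited intensity values come from version 10.7.3.1 of Agilent's Feature Extraction. It subtracted background and detrended each array, without scaling arrays to one another. The 4 arrays shared 1 slide and 1 scan. The authors' deposited value table holds the same intensity values rounded, within 0.5%, with medians of 14.5, 33.4, 20.6 and 22.6 for null replicates 1 and 2 and wild-type replicates 1 and 2, so it is linear and not centred.

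Computed here were log2 processed signals minus each array's 75th percentile over 43379 spots that are not controls. Spots with outlier marks were left out (83 to 104 per array, 21 of 41174 probes lost), and spots of a probe were averaged. A probe was tested if at least 50% of its kept spots were marked well above background on both arrays of 1 genotype. Probes were named by RefSeq accession (GRCm38.p6), 26877 of them. The genotype difference was fitted in R 4.3.3 with limma 3.58.1 (lmFit and eBayes, Benjamini-Hochberg over 22440 probes, 2 residual degrees of freedom, prior 2.43). A gene with several probes is given by the brightest tested one. The script was tested on simulated data.

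The 10 genes, the 11 other gene lists and the naming rule were chosen with earlier results of these data known. Named from each pathway list were genes past the threshold, else the 2 with the smallest unadjusted p, and by likeness 6 genes for the median profile and 3 each for Pdgfra, Pdgfrb and Postn. The series' design text calls the pools independent. Alternatives changed the background correction, scaling, filter, intensity trend, replicate block or arrays used. Same-numbered pools of the 2 genotypes did not deviate together (r = 0.07 across probes).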

Additional observations from a re-analysis of the deposited data

How the results depend on the processing

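No alternative led limma to call any of the 10 genes. Over the whole array, 2 probes were called, against 136 with scaling to spiked-in RNA, 0 with no filter, 1 with probes above background on all arrays, 7 with an intensity trend and 0 with any 1 array left out. With the replicate number as a block the count was 13, and the block changed no call among the 10 genes (limma adjusted p = 0.30 for Hmcn1). The labels do not say that the numbers pair the pools, and the pools did not deviate by number. Scaling to spiked-in RNA moved the median of all probes to -0.60, and 3 genes then had higher means in the null pools. It turned the sign of Dcn (-0.46), Lum (-0.30), Fbn1 (-0.29), Prrx1 (-0.19), Pdgfrb (-0.20) and Bgn (-0.47), each still above that median. It also turned the median of the 10 genes (-0.24) and the medians of the PDGF ligand (-0.42), proteoglycan (-0.46), fibrillin (-0.16), matricellular (-0.33) and mural cell (-0.37) lists. With 1 array left out, the number of genes with higher means was 2 to 8, their median -0.95 to 1.47, and the number at least 2-fold apart without overlap 1 to 8, since fewer arrays overlap less often by construction. That number was 0 with normexp (Hmcn1 -0.33, Postn 1.41) and with probes above background on all arrays, where Hmcn1 is not tested. Differences with 1 array left out were -1.01 to 1.17 for Dcn, -1.74 to 2.23 for Lum, -1.26 to 1.76 for Fbn1, -0.90 to 2.92 for Twist1, -0.43 to 1.14 for Prrx1, -0.68 to 3.37 for Pdgfra, -1.10 to 1.77 for Pdgfrb and -0.14 to 0.28 for Bgn. List medians were -0.17 to 0.13 for PDGF ligands, -0.86 to 0.59 for proteoglycans, -0.57 to 1.34 for fibrillin, -0.25 to 0.40 for matricellular, -0.68 to 0.22 for mesenchymal factor and -0.65 to 0.71 for mural cell genes. With normexp, chosen on the median signal after seeing that the files hold no mean signal, 4 genes shared the most common order, which had null replicate 1 above wild-type replicate 2. Quantile normalization, the median of detected probes and the deposited value table each left 7 genes in the order reported.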
